A study of Mus musculus with 36 samples.

Results

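Gene expression of eosinophils sorted from the small intestine was compared with that of eosinophils sorted from the lung. The comparison used 7 of the 36 samples of the series, 4 small intestine libraries and 3 lung libraries, all taken by their tissue label from a table of 24 tissue libraries, and every gene of that table. Both groups were total eosinophils, flow-sorted from wildtype C57BL/6 mice of both sexes (pooled), 8 to 12 weeks old and at steady state, so the groups differ by label in tissue only. Libraries were made in bulk with Smart-seq2, a method that amplifies full-length cDNA, and read as pairs of 150 bp. The labels name neither the sort gate nor the number of animals behind a library, and replicates are not stated to be separate animals, so the tests below rest on the spread among libraries, part of which may be technical. Levels are TPM, a length-corrected share of a library that keeps no sequencing depth, and the depth behind each value is therefore unknown.

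Eosinophils are granulocytes that leave the bone marrow with granules of cationic proteins, depend on interleukin 5 and enter tissues through eotaxins and their receptor CCR3. In the healthy intestine they live in the lamina propria, next to food, microbial products and aryl hydrocarbon receptor ligands. Lung eosinophils at steady state lie mostly in the tissue around vessels.

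The cell type label was checked against 20 eosinophil markers, all of which were in the table. Siglecf, the lectin used to recognise mouse eosinophils, ranged from 218 to 347 TPM in small intestine and from 105 to 139 TPM in lung. The eotaxin receptor Ccr3 ranged from 484 to 529 TPM and from 309 to 430 TPM. The interleukin 5 receptor chain Il5ra ranged from 40.2 to 57.2 TPM and from 24.5 to 30.7 TPM. The peroxidase gene Epx, transcribed mainly in precursors, was at 1.6 TPM or less in all 7 libraries. The Y-linked gene Eif2s3y was at 93.8 TPM or more in all 7 libraries, so male cells were in each of them.

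Lung libraries held fewer genes, which is why changes are given relative to the median gene. In lung, 7770 to 7876 genes reached 1 TPM, and in small intestine 8741 to 8922 did. The 100 most abundant genes took 51.1% to 52.2% of the summed TPM in lung and 38.1% to 40.5% in small intestine. The plot of detected genes by tissue shows the 3 lung libraries below every other library. The median tested gene had 9.34 to 9.78 TPM in lung and 15.1 to 16.3 TPM in small intestine, and it was 0.64 higher on the log2 scale in small intestine. Each change below is the difference in mean log2(TPM + 1), small intestine minus lung, after this 0.64 is subtracted, so it is a change relative to the median gene. The added 1 TPM narrows the difference of low genes, while the same 0.64 is subtracted. Rises of low genes are therefore understated, and small falls can come from the subtraction. Camp, at 1.36 TPM on average in small intestine and 0.883 TPM in lung, had 0.12 before the subtraction and -0.51 after it. In these bulk samples, fewer cells that express a gene and less RNA of it per cell cannot be told apart.

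**Figure D1:**
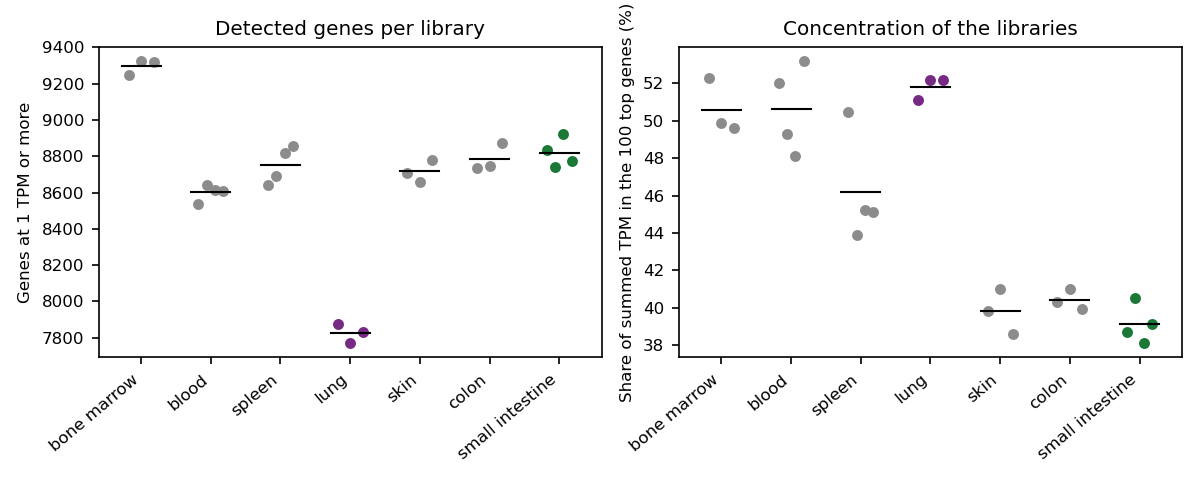
Left, genes at 1 TPM or more in each library (1 point per library, black bars are tissue means). Right, percent of the summed TPM held by the 100 most abundant genes. Green is small intestine and purple is lung; all 3 lung libraries lie at 7876 genes or fewer and all 4 small intestine libraries at 8741 or more.

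Of 9844 genes in the table, 9072 reached 1 TPM in at least 3 of the 7 libraries and were tested with limma. Relative to the median gene, 1879 were higher in small intestine (20.7% of those tested) and 2157 were lower (23.8%), at a Benjamini-Hochberg adjusted p under 0.05. The genes called higher changed by a median of 1.49 and those called lower by a median of -1.36 on the log2 scale. Changes beyond 4 were found in 54 genes called higher and 45 called lower. Tested against 0 instead, 3837 genes (42.3%) were higher and 1080 (11.9%) were lower, so 78.0% of calls were higher against 46.6% relative to the median gene. Only a gene's call relative to the median gene is described as a rise or a fall below, and counts against 0 are given where they differ much. The counts of each gene list below stand beside the background of 20.7% higher and 23.8% lower. Those against 0 stand beside 42.3% higher and 11.9% lower. The balance of all tested genes turned as well, so a balance that turned or became even is not by itself a result about a list. Of the 20 eosinophil markers above, 4 were higher and 8 lower (10 and 5 against 0, so the balance turned). Ccr3 (-0.07) and Il5ra (0.12) did not pass. Among the lower were Cd24a (-1.18) and Hdc (-1.27), and among the higher Cebpe (1.11) and Csf2rb (1.04).

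Among the largest rises were receptors and lysosomal genes at high levels. Clec4a4, an inhibitory C-type lectin receptor (chromosome 6, 122990367 to 123024105, mm10), was at 521, 509, 405 and 513 TPM in the 4 small intestine libraries and was listed at 0 in every lung library (limma adjusted p = 5.86e-14). It averaged at most 4.89 TPM in each of the 5 other tissues. Gngt2, a G protein gamma subunit (chromosome 11, 95837216 to 95845734), was at 646, 630, 506 and 712 TPM against 1.32, 0 and 0 TPM in lung, and rose by 8.24 ± 0.78 (SE, adjusted p = 3.4e-09). No lung library came near the lowest small intestine library for either gene. Gngt2 overlaps Abi3 (chromosome 11, 95830074 to 95842476), which lies on the other strand, so reads may have been shared between them. Abi3 was also among the largest rises, at 171, 131, 171 and 89.5 TPM against 0.21, 0 and 0 TPM (6.37). The rises of Gngt2 and Abi3 may therefore not be independent. Acp5, the acid phosphatase of osteoclasts and macrophages, was at 550, 465, 440 and 637 TPM against 4.05, 7.07 and 1.79 TPM. Its change was 6.11 ± 0.36 (adjusted p = 7.68e-13), and its highest mean in the other tissues was 42.5 TPM.

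Dpep2, a peptidase that cleaves leukotriene D4, ranged from 204 to 240 TPM against 0.26 to 1.93 TPM (6.30). Adamdec1, a protease gene of gut macrophages, ranged from 2988 to 3795 TPM against 16.9 to 63.7 TPM (5.96). Ggta1, which makes the alpha-galactosyl epitope, ranged from 182 to 307 TPM against 0.76 to 3.72 TPM (5.93). Lyz2, the lysozyme of myeloid cells, ranged from 179 to 318 TPM, was at 2.23 TPM in lung replicate 1 and was listed at 0 in the other 2 lung libraries. Lung was here the tissue that stood apart, since the 5 other tissues averaged 19.7 to 809 TPM of Lyz2. Groups did not overlap for any of these genes, which the rule for naming the largest changes required. All small intestine libraries were above all lung libraries in 39.2% of tested genes, and all lung libraries were above all small intestine libraries in 11.9%.

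The largest falls were led by Osm, oncostatin M, a cytokine of the interleukin 6 family (chromosome 11, 4236420 to 4241026). It was at 10.5, 3.02, 20.2 and 8.75 TPM in small intestine and at 673, 710 and 708 TPM in lung, a change of -6.78 ± 0.42 (adjusted p = 2.11e-12). Slpi, a secreted inhibitor of neutrophil elastase (chromosome 2, 164354070 to 164389095), was at 15.7, 39.8, 112 and 118 TPM against 1681, 1481 and 1804 TPM (-5.54 ± 0.40, adjusted p = 2.89e-11). Slpi averaged 1655 ± 163 TPM in lung (SD, n = 3), and in small intestine 71.4 ± 51.5 TPM (SD, n = 4). Rarg, a retinoic acid receptor, averaged 1.41 ± 0.59 TPM against 69.9 ± 23.2 TPM (-5.50), and its relative Rara averaged 6.17 ± 1.93 TPM against 48.2 ± 9.60 TPM (-3.44). Snai1, a zinc finger repressor, was at 23.9 to 66.8 TPM in lung, at 1.61 TPM or less in small intestine and averaged 5.87 TPM or less in every other tissue. Map3k6 (-5.66), Evi5 (-5.11), Oaf (-5.12) and the tropomyosin Tpm4 (-4.84) fell as well.

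**Figure D2:**
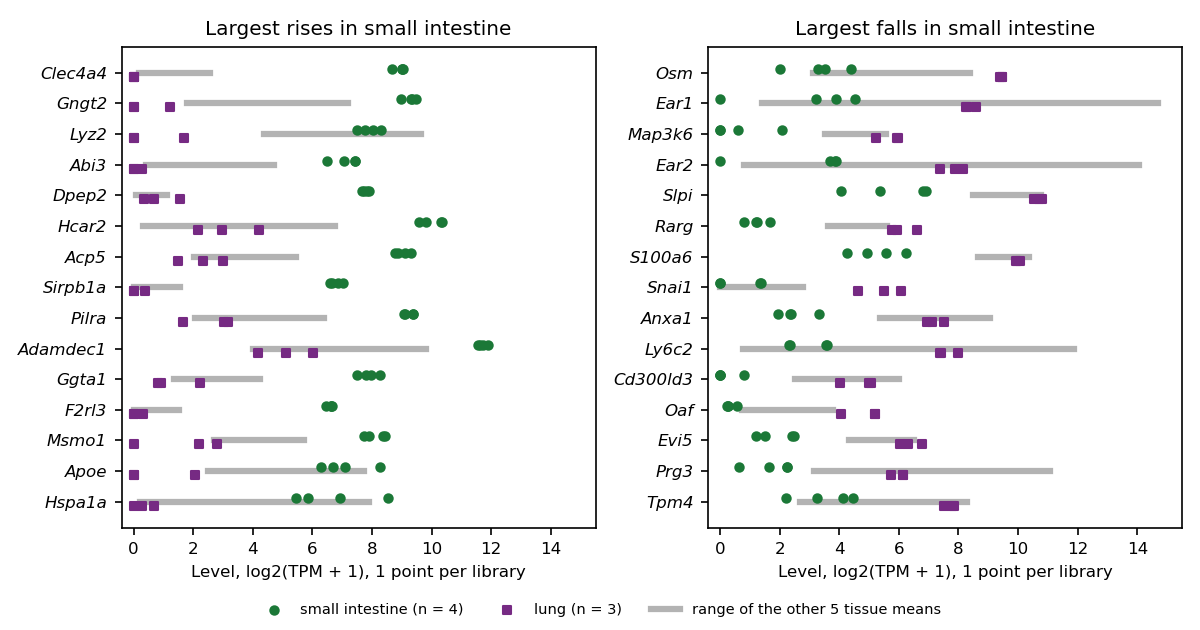
Level of the 15 largest rises and the 15 largest falls on the log2(TPM + 1) scale, 1 point per library. Green circles are the 4 small intestine libraries, purple squares the 3 lung libraries and grey bars the range of the means of the other 5 tissues; circles and squares do not overlap for any gene, and Clec4a4 lies at 0 in every lung library.

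The levels in the other 5 tissues show which of the 2 tissues stood apart. Lung had the lowest mean of all 7 tissues in 71.6% of the genes called higher, against 40.2% of all genes tested. Small intestine had the highest mean in 49.7% of them, against 19.7% of all genes. Of the genes called lower, small intestine had the lowest mean in 40.8% (11.6% of all genes) and lung the highest in 22.7% (5.95%). These shares use the levels that made the calls and are given as a description. A peak in small intestine is shown by Dpep2, at 221 ± 16.4 TPM (SD, n = 4), where lung averaged 0.93 ± 0.883 TPM (SD, n = 3) and the other tissues 0.0525 to 1.19 TPM. A peak in lung is shown by Vegfa, the vascular growth factor, at 68.5, 74.2 and 95.3 TPM, where small intestine had 2.84, 1.67, 10.9 and 2.76 TPM and no other tissue averaged above 12.7 TPM. A low point in small intestine is shown by S100a10, the partner of annexin A2, at 140 ± 34.9 TPM against 1653 ± 144 TPM in lung and at least 511 TPM on average elsewhere.

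**Figure D3:**
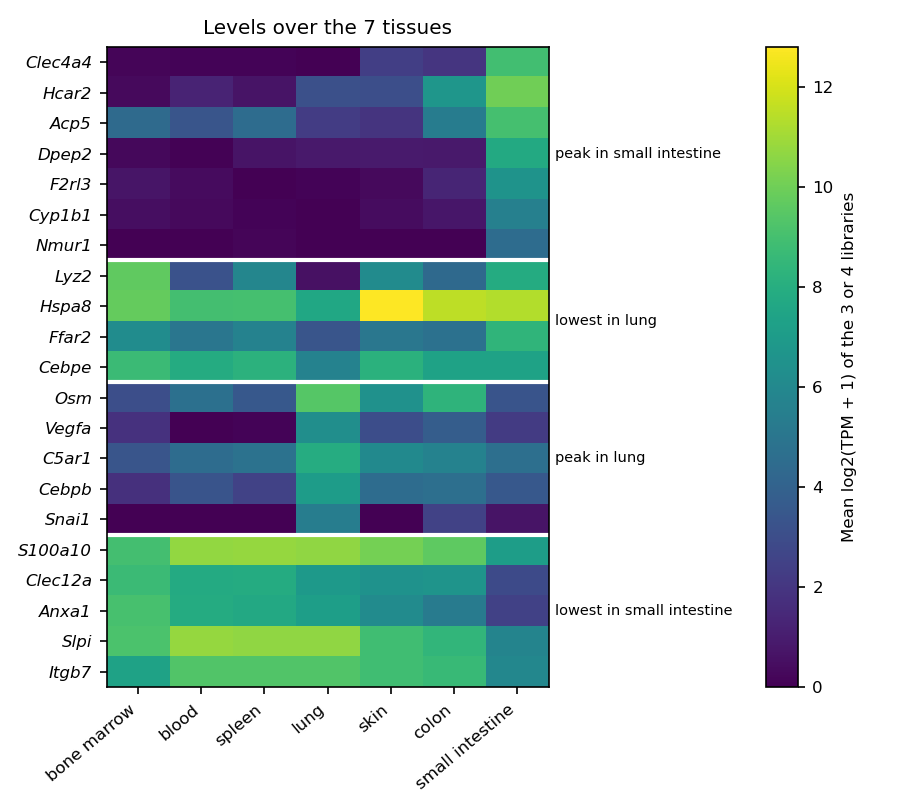
Mean log2(TPM + 1) of 21 genes in the 7 tissues (3 or 4 libraries each), grouped by the tissue that stands apart. Clec4a4, Acp5 and Dpep2 peak in small intestine, Lyz2 and Hspa8 are lowest in lung, Osm, Vegfa and Snai1 peak in lung, and S100a10, Anxa1 and Clec12a are lowest in small intestine.

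Among 23 tested G protein-coupled receptors for metabolites, proteases and neuropeptides, 12 rose and 7 fell, with a median change of 1.05 (15 and 3 against 0). Hcar2, the receptor of butyrate, niacin and ketone bodies (chromosome 5, 123863570 to 123865499), was at 1265, 1305, 891 and 758 TPM against 6.78, 17.4 and 3.50 TPM (6.26 ± 0.45, adjusted p = 2.53e-11). Ffar2, the receptor of short-chain fatty acids, was at 418, 311, 290 and 323 TPM against 9.69, 7.66 and 11.4 TPM (4.36 ± 0.25, adjusted p = 5.02e-13). Both receptors sense products of gut bacteria, and small intestine had the highest mean of the 7 tissues for both, with up to 107 TPM for Hcar2 and up to 73.8 TPM for Ffar2 in the other 5. The thrombin receptor F2rl3 ranged from 85.9 to 100 TPM and was at 0.24 TPM or less in lung. The purine receptor P2ry13 ranged from 41.9 to 57.7 TPM against at most 2 TPM. Nmur1, the receptor of neuromedin U that the series is about, was at 47.4, 7.55, 24.4 and 26.0 TPM and was listed at 0 in every lung library (adjusted p = 1.11e-08). Ramp1, the partner chain of the receptor of calcitonin gene-related peptide, averaged 20.3 ± 5.96 TPM against 0.61 ± 0.56 TPM (3.10). Behind the receptors, Rgs1, which shortens G protein signals, stood at 7149, 4640, 4661 and 3720 TPM against 57.9, 61.5 and 98.3 TPM, a change of 5.46 ± 0.43 (adjusted p = 1.12e-10).

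Chemoattractant receptors moved in both directions, with 8 of 18 higher and 6 lower (11 and 6 against 0, and 5 higher without lung replicate 2). The complement receptor C5ar1 was at 13.04, 21.4, 31.8 and 42.9 TPM against 256, 256 and 224 TPM (-3.88 ± 0.29, adjusted p = 4.31e-11). Its relative C5ar2 was at 1.54 TPM or less against 23.1 to 31.0 TPM (-4.71). The chemerin receptor Cmklr1 (-3.54), the sphingosine 1-phosphate receptor S1pr4 (-4.06) and Gpr35 (-3.39) fell too. Cxcr2, the receptor of CXC chemokines on neutrophils, was higher in small intestine at 39.0, 14.1, 14.9 and 16.3 TPM against 0.12, 1.47 and 0.23 TPM (3.11).

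C-type lectins, Siglecs and paired receptors had 14 of 37 members higher and 12 lower (20 and 7 against 0). Sirpb1a, an activating signal regulatory protein, ranged from 95.4 to 129 TPM against 0.29 TPM or less (6.02). Fcgr4, a receptor of IgG2, ranged from 58.1 to 123 TPM against 1.19 TPM or less (5.42), and the IgG receptor Fcgr3 averaged 1028 ± 323 TPM against 124 ± 15.7 TPM (2.35). The Siglecs Cd22 and Cd33 averaged 75.8 ± 10.6 and 203 ± 33.3 TPM against 2.65 ± 2.22 and 13.04 ± 10.5 TPM. Cd22 is also on the list of B and plasma cell markers below. On the other side, Clec12a, an inhibitory receptor for dead cells, was at 5.29, 4.16, 12.7 and 5.30 TPM against 96.5, 125 and 129 TPM (-4.65). Cd300ld3 was at 0.75 TPM in small intestine replicate 1, was listed at 0 in the other 3 and was at 15.3 to 32.2 TPM in lung (-5.13). The Clec4a, Sirpb1 and Cd300 genes lie in families with near-identical members, so reads may have been split between them.

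Cytokine receptors had 9 of 32 members higher and 11 lower (13 and 8 against 0, so the balance turned). Il1r2, the decoy receptor of interleukin 1, was at 2215, 2532, 2108 and 2774 TPM against 104, 158 and 110 TPM (3.65 ± 0.36, adjusted p = 6.11e-09). The interleukin 10 receptor chain Il10ra (3.01), the interleukin 13 receptor chain Il13ra1 (3.41) and the TGF-beta receptor Tgfbr1 (2.53) rose. Csf2rb, the shared signalling chain for interleukin 5, interleukin 3 and GM-CSF, averaged 535 ± 120 TPM against 164 ± 5.37 TPM (1.04). Il1rl1, the interleukin 33 receptor, was at 0.26, 0.29, 0.07 and 1.26 TPM against 12.1, 12.8 and 4.27 TPM (-3.44 ± 0.31, adjusted p = 1.83e-09). Il3ra (-3.14) and Il18rap (-3.51) fell with it.

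Cytokines themselves fell more often than they rose, with 5 of 20 higher, 11 lower and a median of -1.19 (6 and 9 against 0). Below Osm and Vegfa, the lymphotoxin gene Ltb was at 65.4, 61.9, 101 and 81.6 TPM against 490, 699 and 541 TPM (-3.53 ± 0.18, adjusted p = 5.86e-14). Tnfsf14, known as LIGHT, averaged 8.16 ± 3.12 TPM against 56.0 ± 3.37 TPM (-3.33). Il6 averaged 6.47 ± 5.19 TPM against 33.1 ± 10.9 TPM (-3.07). The type 2 cytokine Il4 averaged 146 ± 18.04 TPM against 377 ± 36.9 TPM (-2.01), and Il13, listed at 0 in every small intestine library, was at 3.56, 5.03 and 13.1 TPM in lung (adjusted p = 4.59e-08). Among the genes that rose, Il1a averaged 1722 ± 368 TPM against 293 ± 57.0 TPM (1.91) and the receptor antagonist Il1rn averaged 4924 ± 771 TPM against 1239 ± 38.2 TPM (1.34). Il1b averaged 4774 ± 1035 TPM against 1615 ± 334 TPM, and its change relative to the median gene, 0.92, missed the threshold (adjusted p = 0.0563) but passed it in 9 of 20 other settings. The subunit gene Il27 rose by 3.15, to 18.3 ± 11.5 TPM.

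Chemokines had 5 of 11 members higher and 2 lower (7 and 2 against 0, and 3 higher without small intestine replicate 2). Ccl4, a macrophage inflammatory protein, was at 8114, 7661, 8254 and 8586 TPM against 552, 359 and 582 TPM (3.43 ± 0.65, adjusted p = 0.000126). Ccl3, its neighbour in the same cluster, averaged 6338 ± 860 TPM against 948 ± 144 TPM (2.11). Ccl6, also of that cluster on chromosome 11, was at 2661, 3877, 4132 and 4507 TPM against 24035, 22879 and 21465 TPM (-3.25 ± 0.14, adjusted p = 4.79e-15). Ccl9 fell with it (-2.91). Ccl6 was among the most abundant transcripts of lung eosinophils, and Ccl4 was among those of small intestine. Cxcl2, a ligand of CXCR2, averaged 8821 ± 2692 TPM against 4785 ± 547 TPM and did not differ from the median gene by the test (0.20, adjusted p = 0.652).

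Granule protein genes were lower in small intestine in 7 of 9 tested members, with none higher and a median change of -3.77, also when tested against 0. Ear1 and Ear2, eosinophil ribonucleases on chromosome 14, averaged 11.1 ± 9.36 and 9.87 ± 6.64 TPM against 332 ± 46.8 and 230 ± 58.9 TPM, and both were listed at 0 in small intestine replicate 4. Their changes were -6.10 and -5.59, and reads may have been split between these near-identical genes. Prg2, the major basic protein, was at 74.3, 59.3, 60.03 and 26.6 TPM against 168, 111 and 276 TPM (-2.36 ± 0.44, adjusted p = 0.000104). Its homologue Prg3 averaged 2.56 ± 1.54 TPM against 63.6 ± 9.89 TPM (-4.94). Serpinb1a, an inhibitor of granule proteases, fell by 3.80 on the log2 scale. Granule genes are transcribed mainly before release from the marrow, and Prg2 averaged between 78.0 and 72330 TPM in the other tissues, so lung and small intestine were both near the low end.

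Retnlg, a resistin-like secreted protein of granulocytes (chromosome 16, 48872621 to 48874496), was the most abundant gene in lung. It was at 65636, 70778 and 74895 TPM there and at 5728, 6711, 7679 and 7646 TPM in small intestine (-3.99 ± 0.20, adjusted p = 4.69e-14). In the other tissues it averaged 7364 to 61060 TPM. The most abundant gene in small intestine was Fth1, the ferritin heavy chain that stores iron. It was at 41899, 47940, 27159 and 32893 TPM against 5286, 5577 and 5465 TPM (2.11 ± 0.19, adjusted p = 1.01e-09), and the light chain gene Ftl1 averaged 13640 ± 4674 TPM against 4319 ± 284 TPM (0.96). Ferritin genes have many processed copies in the genome, so their levels are uncertain.

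Annexins and S100 proteins, calcium-binding proteins of the cell cortex, had 9 of 15 members lower and none higher, with a median of -2.03 (9 lower and 3 higher against 0, and 1 higher without lung replicate 1). Anxa1, a mediator that ends inflammation, was at 2.81, 8.96, 4.04 and 4.19 TPM against 184, 123 and 136 TPM (-5.34 ± 0.27, adjusted p = 5.08e-14). S100a6 was at 29.1, 18.2, 46.9 and 74.8 TPM against 1069, 1009 and 985 TPM (-5.38 ± 0.31, adjusted p = 5.36e-13). Anxa5 averaged 100.2 ± 14.1 TPM against 322 ± 15.8 TPM (-2.32). Small intestine had the lowest mean of the 7 tissues for Anxa1, S100a6 and S100a10.

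Adhesion genes were lower in 14 of 26 tested members and higher in 6 (9 and 9 against 0). Itgb7, the chain of the gut-homing integrin alpha 4 beta 7, was at 30.9, 59.0, 122 and 59.2 TPM against 552, 700.2 and 685 TPM (-4.03 ± 0.25, adjusted p = 1.54e-12). Its partner chain Itga4 averaged 120.0 ± 18.9 TPM against 141 ± 16.4 TPM, with libraries that overlapped, and its call (-0.87, adjusted p = 0.00159) was lost against 0. The collagen receptor chain Itga2 was at 0.70 TPM or less against 11.4 to 12.98 TPM (-4.00). Itgax, the CD11c chain used as a marker of intestinal eosinophils, was at 313, 286, 317 and 337 TPM against 10.3, 10.9 and 18.1 TPM (3.88 ± 0.39, adjusted p = 1.14e-08). Jaml (4.21) and Pecam1 (1.99) rose as well.

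Genes of matrix remodelling and secreted proteases had 5 of 21 higher and 9 lower (9 and 7 against 0, so the balance turned). Plaur, the urokinase receptor, averaged 2663 ± 432 TPM against 327 ± 13.6 TPM (2.37). Thbs1, thrombospondin 1, averaged 525 ± 134 TPM against 1461 ± 197 TPM (-2.14).

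In the synthesis of eicosanoids, lipid mediators made from arachidonic acid, 7 of 19 genes rose and 4 fell (10 and 3 against 0). Ptgs1, cyclooxygenase 1, was at 39.97, 31.9, 25.1 and 32.2 TPM with every lung library listed at 0 (adjusted p = 2.22e-08), whereas Ptgs2, cyclooxygenase 2, averaged 44.4 ± 26.6 TPM against 107 ± 15.7 TPM (-2.06). Alox5ap, which presents arachidonate to 5-lipoxygenase, was at 801, 1048, 1030 and 1107 TPM against 3389, 3439 and 3640 TPM (-2.45 ± 0.11, adjusted p = 4.79e-15). Lta4h, which makes leukotriene B4, averaged 1099 ± 91.0 TPM against 154 ± 19.1 TPM (2.19). Ggt5, which converts leukotriene C4 to D4, averaged 22.3 ± 6.28 TPM against 0.35 ± 0.40 TPM (3.47), and Dpep2 acts in the next step. Alox15, the 12/15-lipoxygenase of eosinophils, averaged 1240 ± 88.4 TPM against 401 ± 31.7 TPM (0.99). Mgst1, a microsomal glutathione transferase of the same list, fell (-2.63).

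Genes of cholesterol synthesis and of other targets of the sterol-regulated factor SREBP rose in 21 of 31 tested members and fell in 1, with a median of 1.87 (26 and 1 against 0). In the order of the pathway, the called enzymes were Acat2 (3.03), Hmgcs1 (1.75), Mvd (1.87), Idi1 (4.97), Fdps (4.19), Fdft1 (4.71), Sqle (3.38), Cyp51 (1.96), Msmo1 (5.81), Nsdhl (2.90), Hsd17b7 (3.31), Sc5d (2.99) and Dhcr7 (3.06). Lss was called as well (1.90, adjusted p = 0.0221), but 6 of the other settings ended its call, and Mvd lost its call under 1. Mvk and Ebp did not pass (0.88 and 0.52). The sterol element, searched on both strands as TCAC, any base and CCAC, was in 1 of 23 members with a RefSeq promoter (4.35%), Hmgcs1, and in 1.33% of tested genes with one.

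Msmo1, which removes the C4 methyl groups of lanosterol products (chromosome 8, 64718139 to 64733792), was at 344, 239, 213 and 332 TPM against 6.00, 3.57 and 0 TPM (5.81 ± 0.43, adjusted p = 3.91e-11). Idi1, isopentenyl diphosphate isomerase, was at 188, 85.0, 105 and 134 TPM against 3.95, 0.11 and 1.99 TPM. Fdps, farnesyl diphosphate synthase, was at 276, 105, 130 and 264 TPM against 6.88, 1.32 and 12.6 TPM. For each of these 3 genes the lowest small intestine library was above 80 TPM and the highest lung library below 13 TPM. Small intestine replicates 1 and 4 had the highest and replicates 2 and 3 the lowest summed level of the list, at 2736 and 2837 against 1925 and 2224 TPM, and lung had 676 to 742 TPM. The regulators rose too, with Insig1, which retains the SREBP complex, at 124 ± 33.1 TPM against 4.18 ± 2.48 TPM (4.05) and Srebf2, the main factor, at 224 ± 7.30 TPM against 58.7 ± 11.5 TPM (1.29). The sterol carrier Stard4 rose by 3.87. Genes of lipid uptake, storage and efflux had 5 of 20 higher and 7 lower (10 and 3 against 0, so the balance turned), a share of higher genes near that of all genes. Without lung replicate 2, 3 were higher. They included Plin2, the lipid droplet coat (2.71), among the higher and Dgat1, of triglyceride synthesis (-1.52), and Lgals3 (-1.87) among the lower. Apoe, the apolipoprotein, was at 305, 136, 102 and 78.0 TPM against 3.2, 0 and 0 TPM (5.76).

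**Figure D4:**
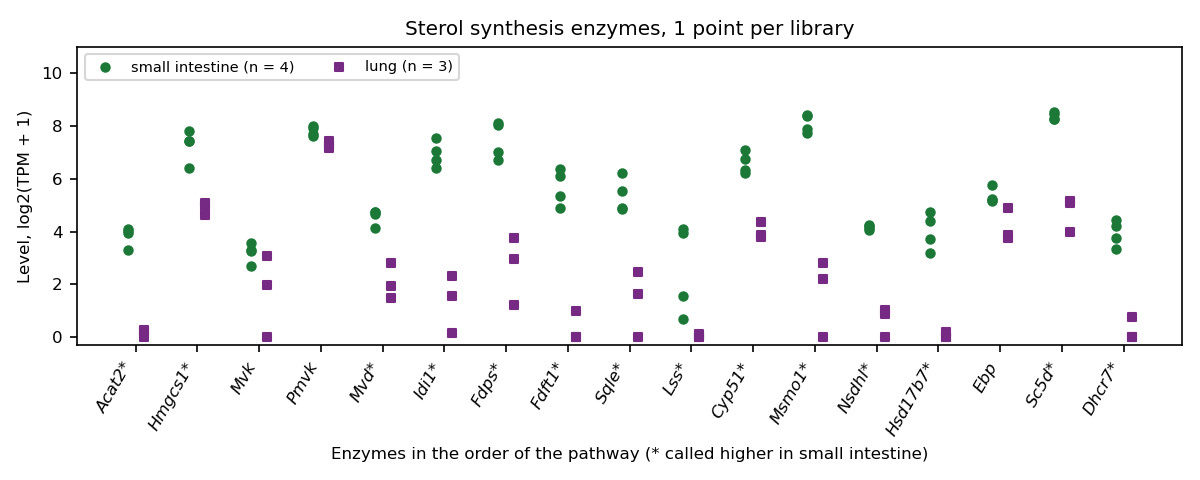
Level of 17 enzymes of sterol synthesis on the log2(TPM + 1) scale in the order of the pathway, 1 point per library (green circles small intestine, purple squares lung, an asterisk marks genes called higher). Idi1, Fdps, Fdft1 and Msmo1 show the widest gaps, and Mvk, Pmvk and Ebp were not called.

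Genes of the unfolded protein response, which raises the folding capacity of the endoplasmic reticulum (ER), rose in 22 of 33 tested members and fell in 1, with a median of 1.02 (26 and 0 against 0). Hspa5, the main ER chaperone (chromosome 2, 34771970 to 34777547), was at 1900, 2430, 1800 and 2149 TPM against 359, 299 and 291 TPM (2.07 ± 0.17, adjusted p = 2.23e-10). Hsp90b1, its partner, was at 653, 803, 503 and 664 TPM against 85.5, 103 and 79.99 TPM (2.21 ± 0.17, adjusted p = 1.1e-10). Small intestine libraries were above all lung libraries for both. The factor Xbp1 averaged 185 ± 26.3 TPM against 27.8 ± 7.77 TPM (2.08), Atf4 averaged 1087 ± 357 TPM against 289 ± 6.49 TPM (1.21) and Ddit3, known as CHOP, averaged 826 ± 330 TPM against 42.4 ± 20.8 TPM (3.62). The co-chaperones Dnajb9 (2.89) and Dnajb11 (2.44) and the disulfide isomerases Pdia3 (1.39) and Pdia6 (1.08) rose. Chac1, a target of ATF4, was at 6.33 to 15.4 TPM, with every lung library listed at 0.

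The ER stress element, a sequence through which ATF6 and XBP1 act on chaperone genes, was searched on both strands of RefSeq promoters (GRCm38.p6, 250 bases before to 50 after the start) as CCAAT, 9 bases of any kind and CCACG. It was in 8 of the 29 members that have a promoter in the table (27.6%), in 0.119% of all 32851 promoters and in 0.163% of the 7380 tested genes with a promoter. Of these 8 genes, 7 rose and Dnajc3 did not pass (0.59, adjusted p = 0.111). Other members that rose, among them Dnajb9, Dnajb11 and Pdia3, have no match in this window. The matches are shown to compare these 8 genes, each read from CCAAT to CCACG with the letters of the motif in capitals. A match describes these letters and was not tested as a site.
Hspa5: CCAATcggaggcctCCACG
Hsp90b1, first match: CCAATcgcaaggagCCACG
Hsp90b1, second match: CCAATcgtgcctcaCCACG
Pdia6: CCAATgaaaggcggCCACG
Calr: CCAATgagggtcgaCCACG
Canx: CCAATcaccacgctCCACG
Creld2: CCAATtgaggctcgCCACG
Syvn1: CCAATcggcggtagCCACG
Dnajc3: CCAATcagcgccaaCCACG

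The 250 bases before the start of Hspa5 and Hsp90b1 show the position of these matches, in capitals, on the strand of each gene. Hspa5 lies on the plus strand, with this stretch at chr2:34771840-34772089, and Hsp90b1 on the minus strand, at chr10:86705445-86705694.
Hspa5: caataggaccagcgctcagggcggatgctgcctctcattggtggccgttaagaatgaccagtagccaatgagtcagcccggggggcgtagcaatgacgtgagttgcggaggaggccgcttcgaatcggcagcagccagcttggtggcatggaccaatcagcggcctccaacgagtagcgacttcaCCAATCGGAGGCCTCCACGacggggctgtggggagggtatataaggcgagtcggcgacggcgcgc
Hsp90b1: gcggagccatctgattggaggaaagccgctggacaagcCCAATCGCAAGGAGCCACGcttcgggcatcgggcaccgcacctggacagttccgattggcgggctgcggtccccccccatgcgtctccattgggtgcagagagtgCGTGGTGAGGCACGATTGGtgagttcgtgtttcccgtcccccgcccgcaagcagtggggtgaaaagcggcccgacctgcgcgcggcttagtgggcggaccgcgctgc

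Cytosolic heat shock proteins and chaperones had 13 of 19 members higher and none lower, with a median of 1.33 (17 and 0 against 0). Without small intestine replicate 1, 8 were higher. Hspa1a, inducible HSP70, was at 368, 121, 42.4 and 57.5 TPM against 0, 0.22 and 0.60 TPM (5.74 ± 0.62, adjusted p = 3.84e-08), though reads may have been split with its near-identical neighbour. Hspa8, constitutive HSC70, was at 4379, 3441, 1524 and 1876 TPM against 222, 192 and 173 TPM (3.08 ± 0.28, adjusted p = 2.08e-09). Hsph1 was at 248, 65.5, 15.6 and 45.2 TPM against at most 2.93 TPM (3.97). Replicate 1 was the highest small intestine library for each of these 3 genes and for Dnajb1 (2.02) and Hspe1 (2.13). The summed level of the list was 10710, 7322, 4016 and 4812 TPM in small intestine and 1849 to 2068 TPM in lung.

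Immediate early genes, which cell isolation can also induce, had 11 of 40 higher and 14 lower (19 and 11 against 0, so the balance turned). Their summed level overlapped between the tissues, at 8854 to 13090 TPM in small intestine and 8931 to 9892 TPM in lung. Different members moved in each direction. Egr2 was at 191, 175, 233 and 182 TPM against 5.52, 0.98 and 7.40 TPM (4.72), Jun at 233, 110, 156 and 53.0 TPM against 1.88 to 9.49 TPM (3.89), and Atf3 (3.23) and Klf6 (3.46) rose. Fosl1 was at 13.8, 5.86, 17.3 and 6.72 TPM against 109, 110 and 82.6 TPM (-3.84), and Cebpb was at 9.27, 8.77, 15.6 and 10.0 TPM against 110, 138 and 159 TPM (-4.17 ± 0.50, adjusted p = 2.1e-07). Jun, Atf3 and Klf6 were highest in small intestine replicate 1, the library with the highest heat shock sum, and the part of cell isolation in these changes was not tested.

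The aryl hydrocarbon receptor pathway, which senses dietary and microbial indoles, had 5 of 10 members higher and 1 lower, with a median of 1.04 (7 and 0 against 0). Cyp1b1, a monooxygenase induced by the receptor (chromosome 17, 79701537 to 79715061), was at 72.2, 68.4, 27.6 and 37.1 TPM against 0, 0 and 0.10 TPM (4.92 ± 0.37, adjusted p = 4.89e-11). No other tissue averaged above 0.70 TPM. Ahrr, the repressor that the receptor induces, was at 21.2, 12.2, 18.7 and 13.1 TPM against 0.35, 0 and 0.07 TPM (3.26). The receptor gene Ahr was at 217, 220.3, 191 and 190 TPM against 37.5, 43.4 and 37.1 TPM (1.71 ± 0.18, adjusted p = 1.92e-08), and Tiparp (1.47) and Fut4 (1.54) rose. The member called lower was Lpxn, which 11 other settings did not call, among them those without lung replicate 3 or without small intestine replicate 1, 3 or 4. The core element TNGCGTG was in 2 of 8 members with a promoter and in 9.96% of tested genes with one, and Ahrr holds it as TCGCGTG 29 bases before its start. The other member with a match, Hic1, did not pass (-0.63), at 75.6 TPM on average against 74.6 TPM.

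Checkpoint ligands, costimulators and MHC class II genes had 9 of 15 higher and 1 lower, with a median of 1.06 (2 lower without lung replicate 3 or small intestine replicate 3). Cd274, known as PD-L1, was at 202, 252, 189 and 156 TPM against 21.1, 35.01 and 34.98 TPM (2.06 ± 0.29, adjusted p = 2.39e-06), and Pdcd1lg2, known as PD-L2, averaged 50.5 ± 23.1 TPM against 7.76 ± 0.94 TPM (1.81). Cd86, a ligand of CD28, averaged 27.2 ± 6.95 TPM against 3.42 ± 2.47 TPM (2.14). H2-Ab1, a class II chain, was at 192, 221, 238 and 39.99 TPM against 24.4, 1.91 and 10.0 TPM (3.30 ± 0.79, adjusted p = 0.00138). Small intestine replicate 4 was the lowest for it and for H2-Aa, at 18.03 TPM against 94.3 TPM or more in the other 3, and lung had 10.9, 0 and 22.6 TPM. H2-Aa lost its call without lung replicate 2. The member that fell was H2-Oa, a chain that restrains class II loading, at 5.26 to 8.18 TPM against 31.8 to 84.8 TPM (-3.55).

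Class I presentation was lower in 13 of 24 members and higher in 4 (5 and 5 against 0, so the balance was even). H2-D1 was at 1426, 1687, 1578 and 1669 TPM against 4082, 4234 and 4967 TPM (-2.11 ± 0.14, adjusted p = 3.19e-12), with reads that may be shared between class I genes. The transactivator Nlrc5 averaged 2.36 ± 1.39 TPM against 26.9 ± 26.8 TPM (-3.37), with lung replicate 3 at 57.8 TPM. Interferon-stimulated genes were lower in 19 of 38 and higher in 2, with a median of -1.10 (8 and 7 against 0, and 4 higher without lung replicate 3). Ifitm6 averaged 18.4 ± 9.15 TPM against 133 ± 29.9 TPM (-3.52), Ifi27l2a 108 ± 55.4 TPM against 375 ± 76.5 TPM (-2.60) and Samhd1 476 ± 82.7 TPM against 1354 ± 274 TPM (-2.14).

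NF-kappaB subunits, feedback genes and targets had 3 of 34 higher and 14 lower, with a median of -0.48. Against 0, 12 were higher and 7 lower, so the balance turned, as it did for all genes. Without small intestine replicate 1, 5 were higher, and 6 were after median-ratio scaling or quantile normalization. Nfkbia, the inhibitor that the pathway induces first, was at 1506, 1597, 2237 and 1955 TPM against 3563, 4364 and 3632 TPM (-1.73 ± 0.22, adjusted p = 4.57e-07), and the subunit gene Nfkb1 averaged 108 ± 14.3 TPM against 221 ± 31.8 TPM (-1.66). Traf1 (-3.00) and Bcl3 (-2.80) fell, and Tnfaip2 rose by 2.02. Lung levels of Nfkbia and Nfkb1 were above all small intestine libraries on the unshifted TPM scale. The NF-kappaB element, searched on both strands as GGGA, any base, TT, any base and CC, was in 8 of 29 members with a promoter (27.6%), in 4 of 8 chemokines and in 1.69% of tested genes with a promoter. The 4 chemokines are Cxcl1, Cxcl2, Cxcl3 and Cxcl10, and none of them passed the test here. Of the 8 members of the NF-kappaB list with a match, Nfkbia, Bcl3, Nfkb2 (-0.64) and Tnip1 (-0.80) fell and 4 did not pass, and 13 other settings did not call Nfkb2 and 7 did not call Tnip1. The chemokine matches are shown beside that of Nfkbia, each in the direction of the motif. Cxcl1, Cxcl2 and Cxcl3 have the letters of Nfkbia, and those of Cxcl10 differ.
Cxcl1: GGGAATTTCC
Cxcl2: GGGAATTTCC
Cxcl3: GGGAATTTCC
Cxcl10: GGGACTTCCC
Nfkbia: GGGAATTTCC

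Transcription factors of the lineage had 9 of 35 higher and 13 lower (18 and 8 against 0, so the balance turned). Cebpe, a factor of granule formation, averaged 169 ± 16.2 TPM against 50.2 ± 10.5 TPM (1.11), and at least 168 TPM in each other tissue, so lung was the low one. Zeb2 was at 55.8, 55.8, 60.2 and 73.7 TPM against 329, 242 and 296 TPM (-2.85 ± 0.18, adjusted p = 3.14e-12). Id1, an inhibitor of helix-loop-helix factors, fell by 2.61 on the log2 scale. Innate sensing genes had 6 of 25 higher and 6 lower (11 and 2 against 0, and 3 lower without lung replicate 2), shares near those of all genes, with Tlr6 (2.59) and Tlr13 (2.09) higher and the lipopolysaccharide co-receptor Cd14, at 21.6 ± 4.86 TPM against 80.9 ± 8.06 TPM, lower (-2.52). Apoptosis genes had 6 of 29 higher, a share near that of all genes, and 9 lower (13 and 5 against 0, so the balance turned, and 3 higher without lung replicate 3). Bbc3, the death factor PUMA, was at 2.34 TPM or less against 11.6 to 14.8 TPM (-3.66), the death receptor Fas fell by 2.43 on the log2 scale, and the survival gene Mcl1 averaged 200.1 ± 13.7 TPM against 380 ± 31.6 TPM (-1.56). Cell cycle genes had 12 of 27 higher and 5 lower, with a median of 1.09 (18 and 4 against 0). The helicase gene Mcm7 averaged 17.8 ± 7.20 TPM against 0.68 ± 0.86 TPM (2.87), Mcm5 was at 8.54 to 21 TPM and listed at 0 in lung, and the inhibitors Cdkn1a and Cdkn2d averaged 167 ± 38.8 and 46.1 ± 21.2 TPM against 632 ± 62.1 and 193 ± 11.2 TPM. The summed level of the list was 1028 to 1159 TPM in small intestine and 1277 to 1361 TPM in lung.

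Endosome and lysosome genes had 16 of 38 higher and 4 lower, with a median of 0.50 (30 and 1 against 0). The protease Ctsl was at 145, 152, 122 and 160 TPM against 6.32, 4.31 and 10.8 TPM (3.60 ± 0.60, adjusted p = 2.61e-05), and Laptm4a averaged 331 ± 46.5 TPM against 22.1 ± 3.32 TPM (3.21). Cd68, a glycoprotein of lysosomes, averaged 92.4 ± 12.8 TPM against 5.59 ± 2.23 TPM (3.24).

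Ribosomal protein genes were lower in 74 of 78 and higher in 1, with a median of -1.19 (55 and 5 against 0, and 53 and 3 after quantile normalization). Rps27a averaged 2337 ± 251 TPM against 8186 ± 896 TPM (-2.44). Rpl3 was the exception, at 679 ± 12.2 TPM against 187 ± 41.9 TPM (1.24). These genes took 11.4% to 12.4% of the summed TPM in small intestine and 18.5% to 20.2% in lung, and many have processed copies that can share reads. Oxidative phosphorylation was lower in 36 of 59 and higher in 4, with a median of -0.77 (19 and 12 against 0), with Uqcrh at 346 ± 29.7 TPM against 1235 ± 212 TPM (-2.46) and Cox4i1 at 754 ± 53.1 TPM against 1578 ± 125 TPM (-1.70). Hypoxia and glycolysis genes had 10 of 33 higher and 9 lower (16 and 6 against 0). Gapdh averaged 3574 ± 132 TPM against 736 ± 153 TPM (1.66). The glucose transporters parted, since Slc2a3 was at 112, 117, 125 and 102 TPM against 17.8, 9.53 and 7.95 TPM (2.61) and Slc2a1 was at 24.1, 16, 19.3 and 28.5 TPM against 72.5, 83.8 and 75.6 TPM (-2.43). Ddit4, an inhibitor of mTORC1, fell by 3.75 on the log2 scale.

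In cAMP and calcium response genes, 6 of 31 rose and 13 fell (10 and 6 against 0, so the balance turned). Besides Gngt2 and Rgs1, the calcineurin regulator Rcan1 rose by 3.83, to 68.6 ± 22.9 TPM. The G protein subunit Gnai2 averaged 56.1 ± 7.13 TPM against 251 ± 72.8 TPM (-2.74), and the kinase Sik1 fell by 2.97 on the log2 scale.

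**Figure D5:**
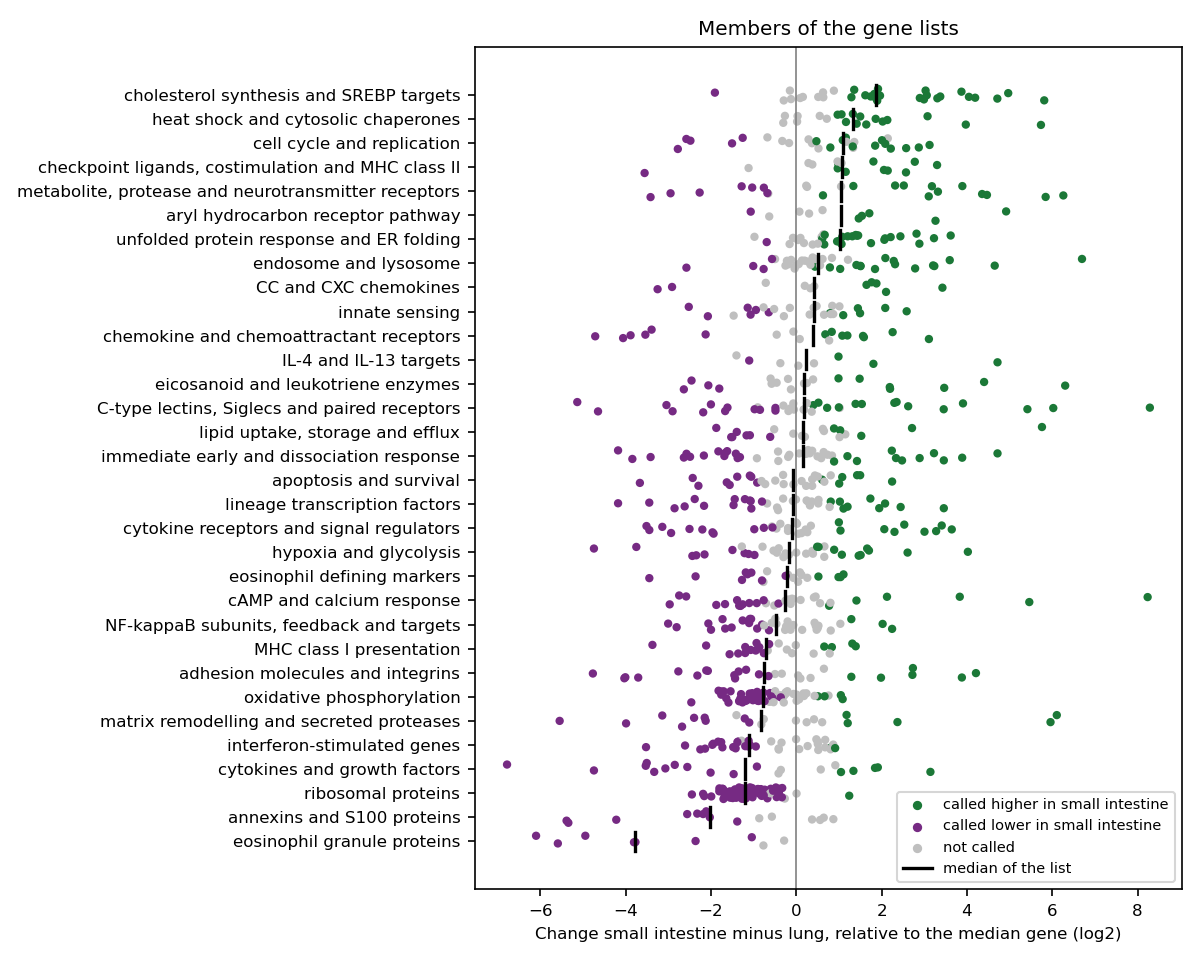
Change of every tested member of each gene list, small intestine minus lung, relative to the median gene on the log2 scale (1 point per gene; green called higher, purple called lower, grey not called; black bars are list medians). Cholesterol genes have a median of 1.87 and heat shock genes of 1.33; granule genes have a median of -3.77 and annexins and S100 proteins of -2.03.

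Markers of other cells were followed beside these results. Of 24 macrophage and monocyte markers, 12 were in the table and their summed level overlapped, at 1371 to 1939 TPM in small intestine and 1514 to 1573 TPM in lung. The sum includes Adgre1, also an eosinophil marker, at 463 to 650 TPM in small intestine and 281 to 366 TPM in lung. It also includes Ear2, an eosinophil granule gene above, at 167 to 284 TPM in lung and 9.87 TPM on average in small intestine. The sum therefore does not follow macrophages and monocytes alone. Of the 10 macrophage and monocyte markers tested, Apoe, C1qb, Cd68 and Ace (1.44) were higher and Ear2, Ly6c2 (-5.26) and Csf1r (-0.98) lower, the last not against 0. C1qb was at 37.4, 45.6, 19.8 and 4.12 TPM against 0.41 TPM or less in lung (3.58). C1qb and Apoe, like class II genes, were lowest in small intestine replicate 4, and Cd68 was highest there. Of 19 neutrophil markers 15 were in the table. Their sum, 66210 to 75410 TPM in lung against 6309 to 8272 TPM in small intestine, was almost all Retnlg. Of 12 tested, 4 were lower and 2 higher (2 lower without small intestine replicate 3). The lower ones beside Retnlg were S100a9, at 44.5 ± 31.8 TPM against 141 ± 42.3 TPM (-2.55), Ltf, at 4.78 ± 6.70 TPM against 10.6 ± 5.86 TPM (-2.39), and Ngp, at 148 TPM in lung replicate 1 and 10.1 TPM or less in the other 6 libraries (-1.91). Ltf lost its call in 3 other settings, among them those without lung replicate 3 or small intestine replicate 3. Ngp lost its call in 12, among them those without lung replicate 1 (-0.47) or without any 1 small intestine library. The higher ones were Cxcr2 and Csf3r. The neutrophil granule gene Camp was at 3.64 TPM or less in all 7 libraries, and Csf3r, the receptor of the neutrophil growth factor, was listed at 0 in every lung library and was at 9.59 to 21.9 TPM in small intestine. Of 25 markers of endothelium, stroma and glia 5 were in the table, with Dcn, a matrix gene, at 47.9, 2.20, 21.4 and 50.1 TPM against 0 in all lung libraries. Of 4 tested, 3 were higher and none lower, also against 0, namely Dcn, Pecam1 and the collagen gene Col1a2 (1.71). Col1a2 was at 6.52, 0.4, 5.1 and 9.5 TPM, with every lung library listed at 0. Of 27 gut epithelium markers 4 were in the table, with Epcam at 3.92 TPM or less and Olfm4, also made by granulocytes, at 67.9 to 176 TPM against 2.76 TPM or less (4.999). Of 17 lung epithelium markers 3 were in the table and tested, and all 3 were lower (2 against 0). Napsa, present in every tissue, was the most abundant (-1.50). Cbr2 (-2.36) was at 30.5, 1.4 and 0 TPM in lung and at 1.7 TPM or less in small intestine, so it rested on lung replicate 1. Ager (-1.67) averaged 0.57 TPM in small intestine against 2.27 TPM in lung and was not called against 0.

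Of 23 B and plasma cell markers 3 were in the table and tested, with 2 higher and none lower, also against 0. Cd22, named above among the Siglecs, was at 61.4 to 87.0 TPM in small intestine and 1.36 to 5.21 TPM in lung (3.91). Jchain was at 8.33, 27.2, 909 and 12.9 TPM in small intestine and at 0.29 TPM or less in lung (4.66). Cd79b did not pass (0.70). Of 9 tested markers of erythroid cells and platelets, the platelet genes Ppbp, at 68.1 ± 30.8 TPM against 1.37 ± 2.37 TPM (4.59, adjusted p = 3.76e-05), and Pf4, at 17.99, 35.2, 1.22 and 13.7 TPM against 2.28, 0 and 2.77 TPM (1.77, adjusted p = 0.0311), were higher. Pf4 lost its call without lung replicate 2 or without small intestine replicate 1, 2 or 4. Itga2b, also of platelets, was lower (-1.73), but not without lung replicate 2. Hba-a1 was at 954, 0, 784 and 3492 TPM in small intestine and at 3774, 5363 and 420 TPM in lung, and did not pass (adjusted p = 0.179). Markers of group 2 innate lymphoid cells, which also make Il13, had 4 of 13 in the table, summing to 3.01 to 8.64 TPM in small intestine and 17.7 to 29.3 TPM in lung. All 3 that were tested were lower, also against 0, namely Il13, Kit (-1.96) and Klrg1 (-2.81). Dendritic cell markers had 7 of 14 in the table, with 3 higher (1 without lung replicate 2) and 2 lower, summing to 224 to 748 TPM and 218 to 302 TPM. Mast cell and basophil markers had 7 of 14, summing to 199.7 to 261 TPM and 338 to 364 TPM. That sum was almost all Hdc, also an eosinophil marker, at 185 to 243 TPM in small intestine and 321 to 348 TPM in lung. Of the 7, 4 were listed at 0 in every small intestine library and 4 in every lung library. Of 20 T and NK cell markers 1 was in the table, at 3.83 TPM or less. The part of such cells in the changes above was not tested.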

How the data were processed

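The authors deposited a table of TPM for 24 tissue libraries, made with cutadapt 2.10, STAR 2.7.5c and RSEM 1.3.3 on mm10, per the submitters' processing notes. The annotation and the filter on genes were not given in the sources used here. No gene of the table was above 0 in fewer than 3 libraries, and columns of the 7 libraries summed to 837823 to 888888. TPM keep no read depth, so no counting interval can be given. Sample titles gave the groups and replicate numbers, and 0 per-sample columns of this table were left unused. The reporter-sorted and single-cell samples were not analysed here.

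Genes with at least 1 TPM in at least 3 of the 7 libraries were put on the log2(TPM + 1) scale and tested in R 4.3.3 by limma 3.58.1 (lmFit, eBayes with trend, two-sided). All 24 libraries entered the fit with tissue as the only term. The median change of all tested genes was subtracted before the test, and Benjamini-Hochberg adjustment ran over all 9072 genes. On simulated data for this contrast with 200 changed genes among 9072, 35% of changes of 1 and 79% of changes of 2 on the log2 scale were recovered, with 3 unchanged genes called. The simulated shift of the median gene was 0.4, not 0.64, and low genes were left unchanged. Far fewer genes changed in it than were called in the data. Recovery and false calls in the actual contrast are therefore not known from it.

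The gene lists, the comparison and its members were chosen with earlier results of these data known. Named genes are the 15 that rose most and the 15 that fell most, called relative to the median gene and against 0, with 10 TPM or more on average in the higher tissue, without overlap and with a named gene model outside ribosomal proteins. They also include up to 5 called members per list (the 2 most abundant where none was called), all members of lists of at most 12, the 10 most abundant genes per tissue, and Nmur1. The text names part of these, since a few are not reported here, and it adds genes chosen for their role after their values were seen, such as Hspa5, Xbp1, Il1a, Gapdh and the sterol enzymes. Coordinates came from GENCODE M21, and promoters from RefSeq. Alternatives covered scaling, the test against 0, pseudocounts, filters, the samples in the fit, length and GC content (values for 99.0% of tested genes), a replicate block and each library left out.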

Additional observations from a re-analysis of the deposited data

Results flagged for a closer look

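In 19 of 206 values checked (9.22%), 1 small intestine library lay far from the other 3 for its gene, by a gap above 82.9% of the range of the 4 libraries. Chance flags about 1 in 20 such groups, and groups of 3, such as lung, were not checked.

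Replicate 1 was the lowest for Bcl3 (5.33 TPM), Il4 (119 TPM) and the sterol enzyme Mvd (16.7 TPM), and the highest for Cxcr2 (39.0 TPM) and Cd300ld3 (0.75 TPM, with the other 3 at 0). Replicate 2 was the lowest for Il1b (3236 TPM) and the highest for Lpxn (6.96 TPM). Replicate 3 was the lowest for Clec4a4 (405 TPM) and the highest for Clec12a (12.7 TPM), Il3ra (5.78 TPM), Map3k6 (3.27 TPM), Oaf (0.48 TPM), Vegfa (10.9 TPM) and Jchain (909 TPM). Replicate 4 was the lowest for Ear2 (listed at 0 TPM) and Pecam1 (132 TPM), and the highest for Il13ra1 (30.6 TPM), Il27 (35.5 TPM) and the sterol enzyme Ebp (53.1 TPM).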

How the results depend on the processing

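TPM hold no depth, so counting error is unknown, and levels near 0 are the least certain. The test against 0 called 3837 genes higher and 1080 lower, in place of 1879 and 2157. Counts were 2512 and 1885 after median-ratio scaling, which moved the median gene to 0.20, and 1901 and 1965 after quantile normalization, so higher calls were 57.1% and 49.2% of all calls. Leaving out 1 library gave 1653 to 1735 higher and 1918 to 2075 lower. The difference in genes at 1 TPM or more was 993 and 958.33 to 1018.7 with 1 library left out. Of the called genes named in the text, 196 were checked. Of these, 184 kept their direction and call, 179 in all 20 settings and 5 in the 19 that tested them. The exceptions were Csf1r, H2-Aa, Itga2b, Itga4, Lpxn, Lss, Ltf, Mvd, Nfkb2, Ngp, Pf4 and Tnip1. Of 9 checked genes that were not called, 7 were called in at least 1 setting. These were Il1b in 9 (adjusted p 0.0014 to 0.152), Dnajc3 in 4, Cxcl2, Cxcl3 and Ebp in 2 each, and Cxcl10 and Mvk in 1 each. Of genes not called, Cxcl2 turned to -0.0232 after correction for length and GC content. With 1 library left out, Cxcl3 ranged from -0.0118 (without lung replicate 1) to 0.632 and Cxcl1 from -0.0433 (without small intestine replicate 4) to 1.01. Libraries with the same number did not deviate together (r = -0.007, -0.033 and -0.026 over genes). With 3 or 4 libraries per group, this cannot show whether libraries of the same number share animals, which the labels do not state. With the replicate block 1883 genes were higher and 2094 lower. The cause of these shifts was not tested.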

Other observations

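Detection itself was uneven. Of the 9844 genes in the table, 104 were listed at 0 in all 3 lung libraries and were above 1 TPM in all 4 small intestine libraries. The reverse held for 4 genes, Il13, Arhgef10l, Pon3 and Prr7. In all, 382 genes were listed at 0 in every lung library and 90 in every small intestine library. A gene listed at 0 can be one that was not sampled.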
